A study of Mus musculus with 11 samples.

Results

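The genes of the mitochondrial genome were taken as all genes whose GENCODE symbol for the mouse assembly GRCm38 starts with mt-. They are 37 of the 38293 genes in the count tables. They comprise 13 mRNA genes, 2 rRNA genes (mt-Rnr1 and mt-Rnr2) and 22 tRNA genes. This rule uses no measured value, although the gene set was chosen with earlier results of these data known. Over 11 mice, 29 of the 37 genes reached a total of at least 10 counts and could be tested. These were all 13 mRNA genes, both rRNA genes and 14 tRNA genes. The other 8 were tRNA genes, of which 6 (mt-Tw, mt-Ty, mt-Td, mt-Tk, mt-Tg and mt-Th) had 0 counts in every mouse, which at a floor of 3 counts allows up to 0.0675 to 0.256 CPM (counts scaled to 1000000 per library), depending on the library.

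Whole hippocampi of wildtype F1 mice were collected at 14 weeks of age, and their RNA was read in single-end runs of 50 bp. All mice came from 129S6/SvEv dams and C57BL/6J sires, so that both groups carried the mitochondrial genome of the 129S6/SvEv dams, whereas the reads were aligned to the C57BL/6J reference. The dams of the CD group had received a control diet with 2.3 mg folic acid (FA) per kg before mating, and the dams of the FD group a diet with 40 mg FA per kg. The control diet was given to all animals afterwards. CD comprised 3 males and 3 females, and FD comprised 2 males and 3 females. The labels do not give litters, so littermates may be among them. Counts on genes ranged from 11737554 to 44447006 per mouse. All 8 hippocampal neuron markers looked at were detected, and their summed level lay between 6894 and 7973 CPM in every mouse. The 7 choroid plexus markers together reached between 31.0 and 89.7 CPM, and 0 of them passed the test between FD and CD. In such bulk samples, fewer mitochondria-rich cells and less mitochondrial RNA per cell cannot be told apart.

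The mitochondrial genome is a small circular DNA that is inherited from the mother. It encodes core subunits of the respiratory chain and of ATP synthase, together with the rRNAs and tRNAs of the mitochondrial ribosome. Both strands are transcribed into long precursors, from which most mRNAs and rRNAs are released by removal of the tRNAs between them. All other subunits, and the proteins that copy, transcribe and translate this genome, are encoded in the nucleus. Pieces of mitochondrial DNA have also been copied into the nuclear chromosomes in the course of evolution, and such copies are annotated as pseudogenes.

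Nuclear copies of the mitochondrial genes were looked for first, since reads that aligned to more than 1 place were not counted by the authors. In the GRCm38 annotation, 17 pseudogenes matched a mitochondrial gene over at least 100 bases with at least 90% identity. Of these, 7 lay side by side on chromosome 1 from 24611535 to 24616188 on the minus strand, in the same order as positions 6390 to 11042 of the mitochondrial genome. The 7 copies matched over 4140 bases with 2 mismatches. The spaces between neighbouring copies were as long as those between the mitochondrial genes, apart from 1 space of 74 bases in place of 73. The mismatches were A1066T in mt-Co1 against its copy Gm29216 and T3C in mt-Nd3 against its copy Gm28438, with positions counted from the first base of the mitochondrial gene. The first 60 bases of mt-Co2 (chrM:7013-7072, plus strand), which encodes subunit 2 of cytochrome c oxidase, are shown with the same stretch of 2 nuclear copies. Gm28661 lies in the run on chromosome 1, and Gm13341 on chromosome 2 (22587291 to 22587962, minus strand). Capitals mark bases of a copy that differ from mt-Co2.
mt-Co2: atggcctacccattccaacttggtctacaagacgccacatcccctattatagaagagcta
Gm28661: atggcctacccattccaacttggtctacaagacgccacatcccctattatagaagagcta
Gm13341: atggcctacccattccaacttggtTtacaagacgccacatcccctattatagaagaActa
Gm28661 is identical to mt-Co2 in this stretch, and Gm13341 carries C25T and G57A. In mt-Nd3 and mt-Co1 the mismatched base is shown in capitals in the mitochondrial gene (chrM:9459-9518 and chrM:6390-6449, plus strand) and in its copy.
mt-Nd3: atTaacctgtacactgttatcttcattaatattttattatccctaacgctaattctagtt
Gm28438: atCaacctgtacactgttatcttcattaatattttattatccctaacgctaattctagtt
mt-Co1: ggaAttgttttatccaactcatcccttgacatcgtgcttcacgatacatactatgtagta
Gm29216: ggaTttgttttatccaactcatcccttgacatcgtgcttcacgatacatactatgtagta

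The counts split along this run. The 6 mRNA genes that lie wholly within it, mt-Co2, mt-Atp8, mt-Atp6, mt-Co3, mt-Nd3 and mt-Nd4l, had 1001 counts together over all 11 mice, which was 0.00970% of all mitochondrial counts. The 5 tRNA genes within it (mt-Ts1, mt-Td, mt-Tk, mt-Tg and mt-Tr) had 7 counts together. By contrast, 31.2% of the mitochondrial counts fell on the 2 mRNA genes that the run covers in part, mt-Co1 and mt-Nd4, and 51.8% on the 5 mRNA genes outside it. Both rRNA genes lie outside the run and held 16.8%. The 17 tRNA genes outside the run held 0.210%, and 3 of them (mt-Tw, mt-Ty and mt-Th) were at 0 as well, so that absence from the counts was not limited to the run.

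The share of each gene that a 50-base read can reach without a second exact match was counted among annotated transcripts, since no genome sequence was used. For mt-Co2, all 635 possible start positions had a second match. The same held for 629 of 632 positions in mt-Atp6, 734 of 735 in mt-Co3, 293 of 299 in mt-Nd3 and 245 of 248 in mt-Nd4l. For mt-Co1 it held for 765 of 1496 positions and for mt-Nd4 for 827 of 1329, whereas mt-Nd1, mt-Nd6, mt-Cytb and mt-Rnr1 had no position with a second match. mt-Atp8 had 115 counts although 0 of its 155 positions matched an annotated transcript elsewhere, and it starts in the 233-base space between the copies Gm28661 and Gm10925 on chromosome 1 and ends within the stretch that Gm10925 matches, with fewer than 50 bases in that stretch. Why it and the other genes of the run had few counts was not tested. The counts of the 6 mRNA genes within the run are those of their uniquely aligned reads alone.

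**Figure D1:**
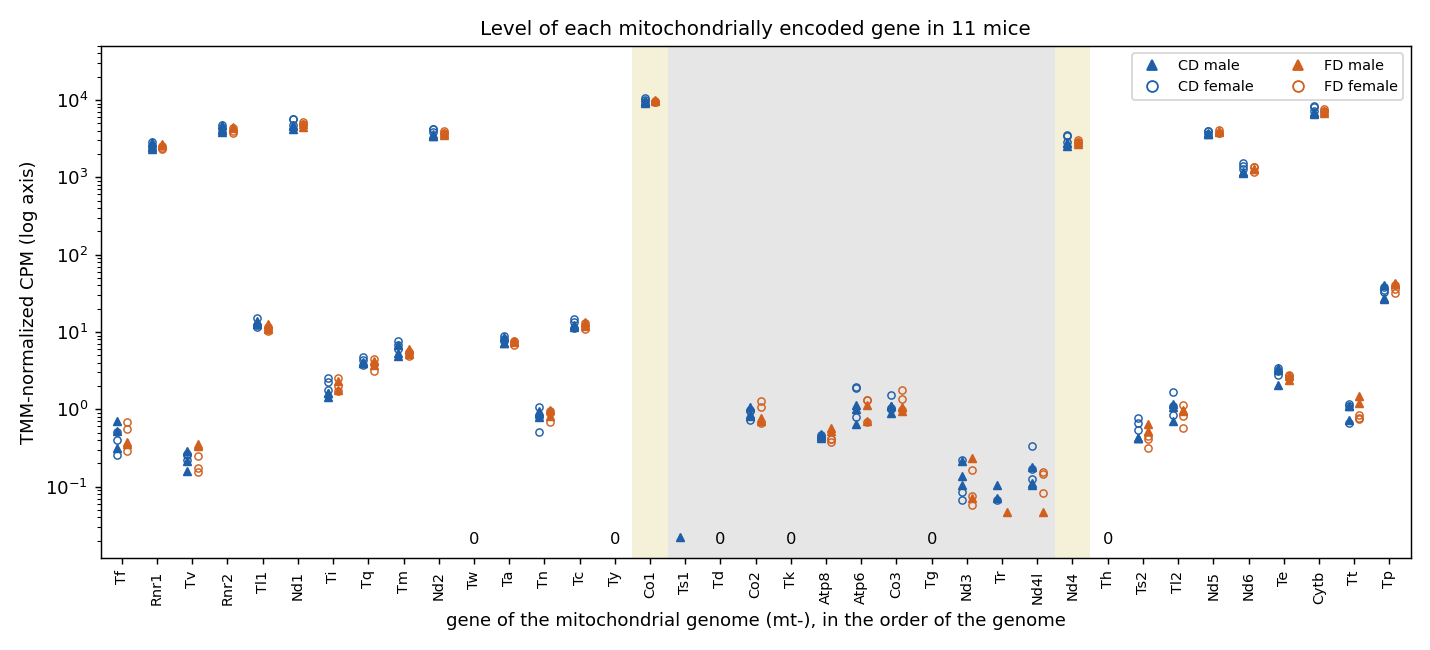
TMM-normalized CPM (log axis) of each gene of the mitochondrial genome, in genome order, in 11 mice (CD blue, FD orange, males filled triangles, females open circles). Grey marks genes wholly within the run that is copied on chromosome 1 and yellow the 2 genes that it covers in part; a 0 marks genes without a count in any mouse, and single mice at 0 are not drawn. Genes in the grey band stay below 2 CPM, and the mRNA and rRNA genes outside it lie at 1148 CPM or more.

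The mitochondrial genome received 4.05% ± 0.311 (SD, n = 6) of the gene counts in the CD group, compared with 4.03% ± 0.117 (SD, n = 5) in the FD group. These shares leave out reads that aligned to several places. All 635 start positions of mt-Co2 and 765 of 1496 in mt-Co1 had a second match. The shares are therefore those of uniquely aligned reads and not of all mitochondrial RNA. In CD mice the lowest share was 3.68%, the median 3.99% and the highest 4.43%. In FD mice the shares were 4.03%, 3.96% and 4.09% in females 1 to 3 and 3.89% and 4.19% in males 1 and 2. All FD mice lay within the range of the CD mice. The mean shares of mRNA genes were 3.36% in CD and 3.35% in FD, those of rRNA genes 0.684% and 0.674%, and those of tRNA genes 0.00860% and 0.00880%. When mice were paired by sex and replicate number, the FD mouse had the lower share in 2 pairs and the higher share in 3, with a mean difference of -0.0906 percentage points. The highest shares were those of CD female 1 (4.43%) and CD female 3 (4.40%), which also had the largest percentages of reads aligned to several places (16.01% and 15.6% of aligned reads). Whether that bears on their mitochondrial share was not tested.

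**Figure D2:**
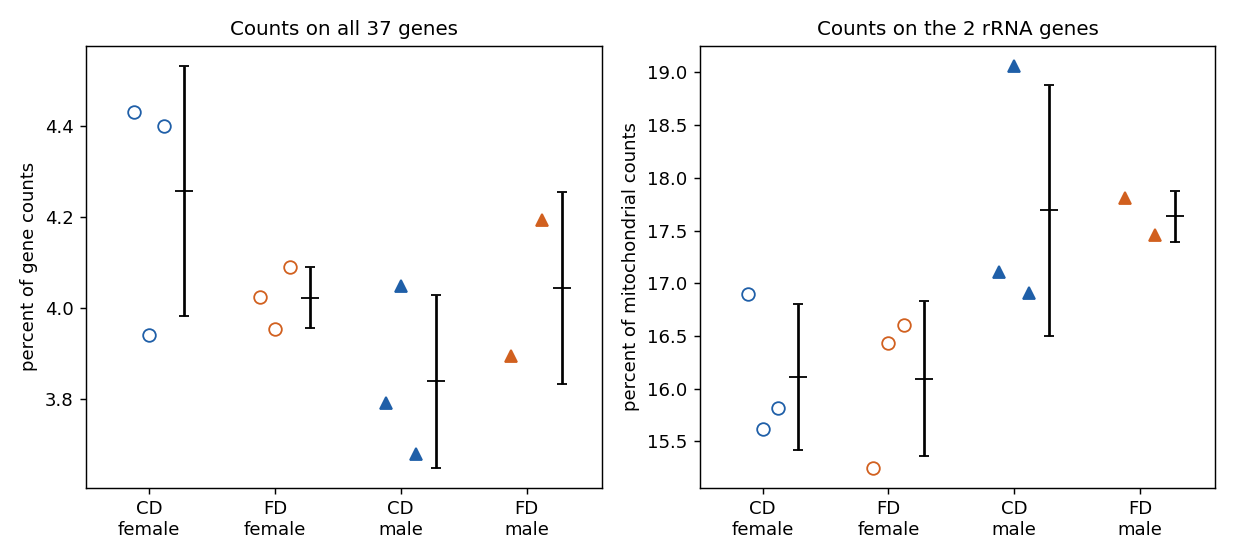
Share of gene counts on the 37 genes of the mitochondrial genome (left, percent of gene counts) and share of the mitochondrial counts on the 2 rRNA genes (right, percent), with 1 point per mouse and the mean ± SD of each group beside it; the axes do not start at 0. Both shares are of uniquely aligned reads only. FD mice lie within the range of CD mice in the left panel, from 3.68% to 4.43%, and females do not exceed males in the right panel.

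Levels were compared between genes per kb of gene. mt-Cytb, the subunit of complex III encoded here, had the highest mean level (6321 ± 478 CPM per kb, SD, n = 11). mt-Co1, the catalytic subunit of cytochrome c oxidase, had 6247 ± 265 CPM per kb, and the order of these 2 genes held in 6 of 11 mice only. Then followed the complex I subunits mt-Nd1 (5113 CPM per kb) and mt-Nd2 (3625 CPM per kb), each lower than the gene before it in all 11 mice. The rRNA genes mt-Rnr2 and mt-Rnr1 (2687 and 2661 CPM per kb) did not differ beyond their spread, with mt-Rnr2 above mt-Rnr1 in 7 of 11 mice. mt-Nd6, the mRNA on the opposite strand, had 2484 CPM per kb and lay below mt-Rnr1 in 8 of 11 mice. mt-Nd4 and mt-Nd5 (2107 and 2083 CPM per kb) came last, and mt-Nd4 exceeded mt-Nd5 in 4 of 11 mice.

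The order depended on the length used. Per 1000 start positions without a second match, mt-Co1 had 13203 ± 561 CPM and mt-Cytb 6604 ± 499 CPM (SD, n = 11), with mt-Co1 above mt-Cytb in all 11 mice. mt-Nd4 moved from the second lowest to the third highest place (5783 ± 590 CPM), above mt-Nd1 (5389 CPM) in all 11 mice. The remaining genes kept their order except that mt-Rnr1 (2805 CPM) then stood level with mt-Rnr2 (2802 CPM). Whether the reads were counted by strand is not stated, so reads of mt-Nd6 and of RNA from the opposite strand cannot be told apart.

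**Figure D3:**
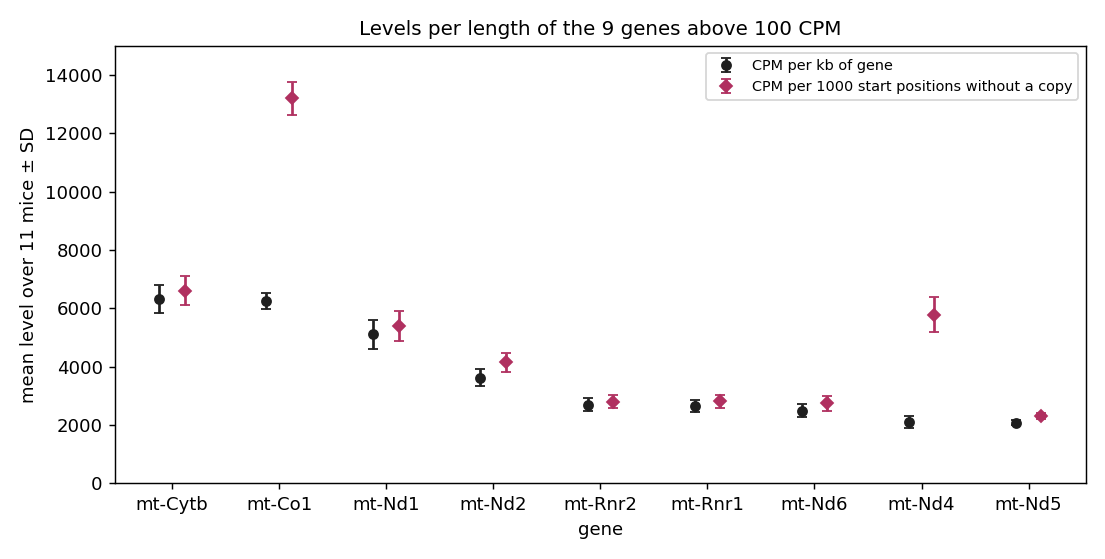
Mean level over 11 mice ± SD of the 9 mitochondrial genes above 100 CPM, as CPM per kb of gene (black) and as CPM per 1000 start positions whose 50-base read has no second match among annotated transcripts (red). mt-Co1 and mt-Nd4, which are copied in part on chromosome 1, move the most between the scales, to 13203 and 5783 CPM.

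The comparison of the maternal diets asked whether offspring of FA-supplemented dams differ in hippocampal expression. None of the 29 genes tested passed the adjusted p-value threshold of 0.1 between FD and CD (edgeR's quasi-likelihood test, Benjamini-Hochberg adjustment over all genes), while 14 of 20589 genes did, or 0.068%. Paired by the replicate block, 23 genes passed, and again 0 of the 29. DESeq2 called 18 genes and 0 of the 29. Values of FD and CD mice overlapped for all 29 genes, whereas 0.505% of all genes did not overlap. At an unadjusted p under 0.05 there was 1 of the 29, compared with 2.59% of all genes. The median log2 fold change over the 29 genes was -0.03 and that over all genes tested was -0.004.

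Of the 29 genes tested, mt-Co1 had the log2 fold change nearest to 0. This subunit of complex IV (ENSMUSG00000064351) had a lowest level of 9123 CPM, a median of 9545 CPM and a highest level of 10670 CPM in CD mice. In FD mice it had 9802, 9413 and 9492 CPM in females 1 to 3 and 9563 and 9849 CPM in males 1 and 2. The 5 FD values lay within the CD range, and the log2 fold change was -0.01 with a standard error of 0.046 and a 95% interval from -0.11 to 0.09. mt-Cytb (ENSMUSG00000064370) had a lowest level of 6538 CPM, a median of 7008 CPM and a highest level of 8343 CPM in CD mice, and between 6749 and 7540 CPM in FD mice. Its log2 fold change was -0.03, with a 95% interval from -0.16 to 0.10.

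Among the complex I subunits above 100 CPM, mt-Nd1, mt-Nd2, mt-Nd4, mt-Nd5 and mt-Nd6, the log2 fold changes ranged from -0.06 (mt-Nd4) to 0.04 (mt-Nd5). The widest 95% interval of these 5 reached from -0.22 to 0.10. The rRNA genes mt-Rnr1 and mt-Rnr2 had log2 fold changes of -0.02 and -0.04. Of all 9 genes above 100 CPM, none had an interval that reached farther from 0. For the 6 mRNA genes within the copied run the intervals were wider, from -1.82 to 0.37 for mt-Nd4l, which had between 0 and 5 counts per mouse.

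The tRNA genes were counted at low levels, led by mt-Tp with a mean of 35.8 CPM, mt-Tc with 12.5 CPM and mt-Tl1 with 12.2 CPM, and reads of 50 bases cover most of a tRNA of this length. The 2 tRNA genes with the smallest p are shown whole. mt-Tl1 encodes a leucine tRNA next to the rRNA genes (chrM:2676-2750, plus strand), and mt-Tp the proline tRNA (chrM:15356-15422, minus strand). mt-Tw (tryptophan, chrM:4950-5016, plus strand) and mt-Th (histidine, chrM:11546-11612, plus strand) are shown as tRNA genes outside the copied run that were at 0 in every mouse.
mt-Tl1: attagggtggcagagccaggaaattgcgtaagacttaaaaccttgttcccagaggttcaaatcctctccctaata
mt-Tp: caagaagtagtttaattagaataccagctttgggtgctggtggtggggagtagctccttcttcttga
mt-Tw: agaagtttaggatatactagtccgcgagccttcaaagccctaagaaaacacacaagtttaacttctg
mt-Th: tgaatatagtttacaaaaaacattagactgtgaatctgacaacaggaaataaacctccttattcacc
In these sequences no base is capitalized. mt-Tl1 had a lowest level of 11.5 CPM, a median of 12.7 CPM and a highest level of 15.02 CPM in CD mice. In FD mice it had 11.01, 10.2 and 11.7 CPM in females 1 to 3 and 11.04 and 12.8 CPM in males 1 and 2. Of the FD mice, 3 lay below the CD range and 2 within it. The log2 fold change was -0.18 with a 95% interval from -0.36 to -0.01, and with an unadjusted p of 0.0398 (edgeR) it did not pass the threshold after adjustment. mt-Tp, with 33.4 ± 5.48 CPM in CD (SD, n = 6) and 38.6 ± 4.66 CPM in FD (SD, n = 5), had a log2 fold change of 0.21, an unadjusted p of 0.0611 and an adjusted p of 1. Under the replicate block its unadjusted p was 0.0417, and it also did not pass after adjustment (adjusted p = 0.723).

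**Figure D4:**
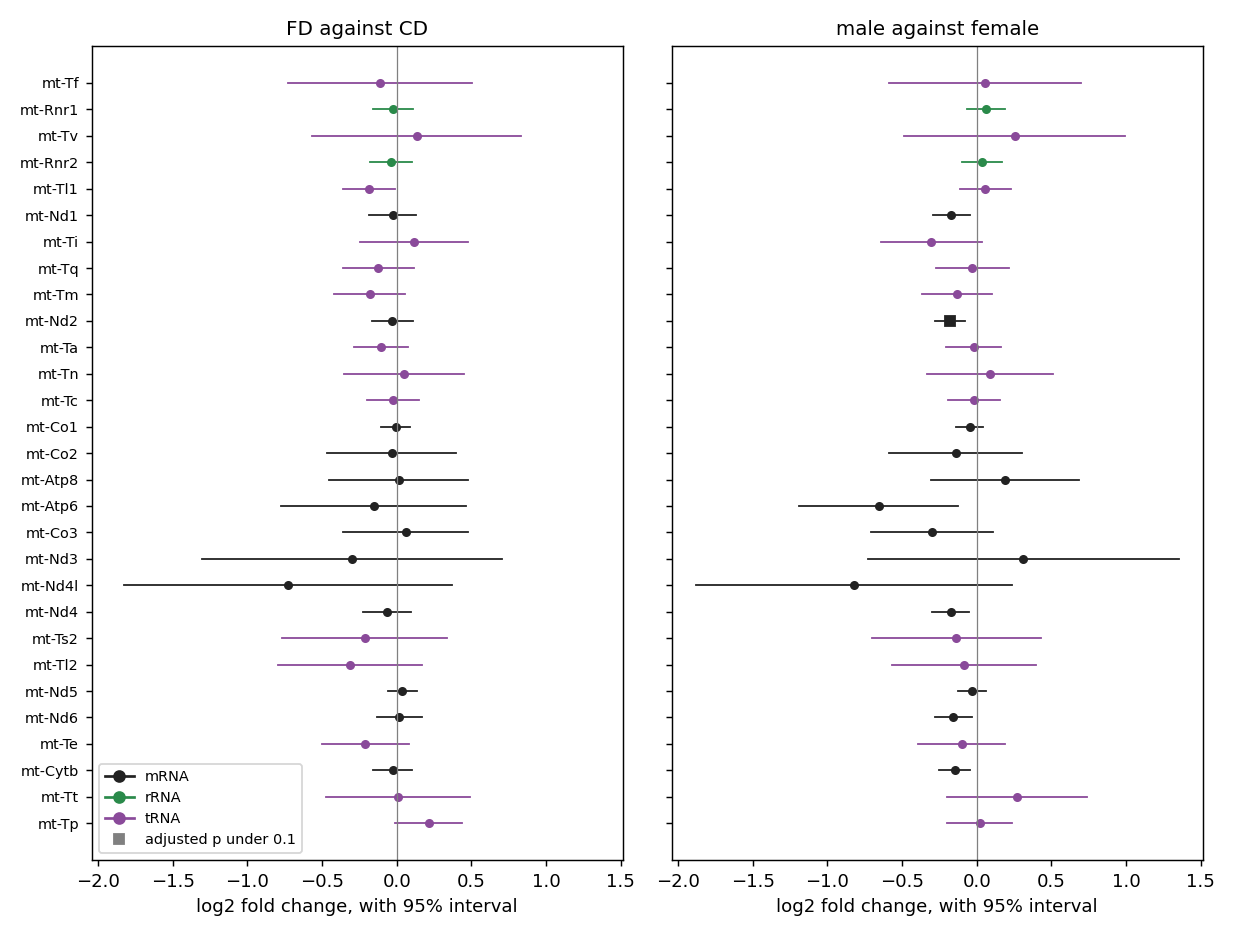
Log2 fold changes with 95% intervals (edgeR) of the 29 tested genes for FD against CD (left) and male against female (right), with mRNA black, rRNA green and tRNA violet; a square marks an adjusted p under 0.1. mt-Nd2 at -0.18 between the sexes is the only square, and the intervals of mt-Nd4l and mt-Nd3 are the widest in both panels.

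Between the sexes, with diet as a covariate, 1 of the 29 genes passed the threshold, while 1257 of all genes did, or 6.11%. This gene was mt-Nd2 (ENSMUSG00000064345), a subunit of complex I, which was lower in males. Its level was 3405, 3590 and 3405 CPM in CD males 1 to 3 and 3491 and 3702 CPM in FD males 1 and 2. In females the lowest level was 3653 CPM, the median 3927 CPM and the highest 4268 CPM. Of the males, 4 lay below all females and FD male 2 lay within their range. The log2 fold change was -0.18 with a standard error of 0.048 (adjusted p = 0.0754, edgeR). Values of males and females overlapped for all 29 genes, whereas 1.78% of all genes did not overlap.

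The other mRNA genes above 100 CPM had lower fitted levels in males as well, with log2 fold changes of -0.15 for mt-Cytb (adjusted p = 0.104), -0.17 for mt-Nd4 (adjusted p = 0.116), -0.17 for mt-Nd1 (adjusted p = 0.125) and -0.16 for mt-Nd6 (adjusted p = 0.142). mt-Co1 and mt-Nd5 were closer to 0, at -0.05 and -0.03. The rRNA genes had positive values, 0.06 for mt-Rnr1 and 0.04 for mt-Rnr2. At an unadjusted p under 0.05 there were 6 of the 29, and 20.3% of all genes, so the members did not stand apart from the genome by this count. mt-Atp6 at -0.66 was among these 6, and it rests on 9 to 60 counts per mouse. The median over the 14 tRNA genes was -0.02.

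In shares of counts, females had 4.14% ± 0.220 (SD, n = 6) of their gene counts on the mitochondrial genome and males 3.92% ± 0.204 (SD, n = 5). The rRNA genes held 16.1% ± 0.638 of the mitochondrial counts in females and 17.7% ± 0.851 in males, and the highest female and the lowest male both stood at 16.9%. These counts leave out reads that aligned to several places. A second match was found at 16 of 1533 start positions of mt-Rnr2 and 0 of mt-Rnr1, but at all 635 of mt-Co2. The rRNA share of the counts is therefore not that of the RNA. Reads outside genes made up 10.3% ± 1.33 of the uniquely aligned reads in females and 11.8% ± 0.933 in males. The 9 glial markers together lay between 3931 and 5613 CPM in females and between 3733 and 4533 CPM in males. Among them Gfap of astrocytes was called lower in males, at a log2 fold change of -0.17 (adjusted p = 0.0932, edgeR). Of the 8 neuron markers 1 was called, the transcription factor gene Zbtb20, which was higher in males at 0.40 (adjusted p = 0.0754, edgeR). With the share of reads outside genes as a further covariate, neither passed. Zbtb20 then had 0.15 (adjusted p = 0.661, edgeR) and Gfap -0.18 (adjusted p = 0.594, edgeR). The part of these cells in the sex result was not tested. A fit of the mitochondrial genes with the share of reads outside genes as covariate follows. It cannot settle the part of these reads, since their mean share also differed between the sexes.

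The call of mt-Nd2 was not stable. With the share of reads outside genes as a further covariate, 9 genes and 0 of the 29 passed, and mt-Nd2 had a log2 fold change of -0.15 (adjusted p = 0.604, edgeR). It passed without CD female 2 and without FD female 2 (adjusted p = 0.0298 and 0.0303, edgeR), when 5 and 6 of the 29 genes passed. It did not pass without CD female 1, CD female 3, CD male 1, CD male 2, CD male 3, FD female 1, FD female 3, FD male 1 or FD male 2, with an adjusted p (edgeR) between 0.104 and 0.184. Over all 11 omissions its log2 fold change stayed between -0.20 and -0.15, and the number of all genes that passed ranged from 18 to 3244. DESeq2 called 4 of the 29 (mt-Nd1, mt-Nd2, mt-Nd4 and mt-Cytb) and 2043 genes in all.

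In the test of whether the diet difference depends on sex, 0 of the 29 genes passed, as did 0% of all genes (edgeR), and DESeq2 was not run for this test. At an unadjusted p under 0.05 there were 2 of the 29 (mt-Ts2 and mt-Nd6) and 1.9% of all genes. The interaction was positive, that is, FD minus CD was larger in males, for 24 of the 29 genes. Over all genes tested, 9248 of 20589 were positive. The median was 0.18 for the 29 genes and -0.02 for all genes. These counts of signs were not tested. The mean mitochondrial share was 4.26% in CD females, 4.02% in FD females, 3.84% in CD males and 4.04% in FD males. With 2 FD males, these means rest on few mice.

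Nuclear genes of the same pathways were given by lists. For FD against CD, 0 genes of each list passed the threshold, and the lowest adjusted p of each list was 1. Of the nuclear subunits of complex I, 30 of 36 had a negative log2 fold change, with a median of -0.08. The same was the case for 9 of 9 subunits of complex III, 11 of 11 of complex IV and 15 of 17 of ATP synthase, with medians of -0.09, -0.07 and -0.06. Of the mitochondrial ribosomal proteins, 57 of 77 were negative, with a median of -0.05. Of the 42 genes for mitochondrial transcription, replication and RNA maturation, 26 were negative, with a median of -0.01. Over all genes tested the median was -0.004 and 10673 of 20589 genes were negative. With single mice omitted, the medians ranged from -0.13 to -0.04 for complex I, -0.15 to -0.04 for complex III, -0.11 to -0.03 for complex IV and -0.10 to -0.03 for ATP synthase, and each was nearest to 0 without CD female 1. Those of the ribosomal proteins ranged from -0.08 to -0.02, with 43 to 64 genes negative, and those of the list for transcription, replication and RNA maturation from -0.02 to 0.01. With the share of reads outside genes as covariate, the medians were -0.05 for complexes I and III. They were -0.03 for complex IV and ATP synthase and -0.02 for the ribosomal proteins. With sex as covariate they were -0.10 for complex I, -0.11 for complex III, -0.08 for complex IV and -0.07 for ATP synthase. The ribosomal proteins then had -0.06. Under the replicate block these medians were -0.09, -0.10, -0.09, -0.08 and -0.06, in this order. Polrmt, the mitochondrial RNA polymerase, had 27.8 ± 1.83 CPM in CD (SD, n = 6) and 25.2 ± 2.57 CPM in FD (SD, n = 5), and its log2 fold change of -0.13 did not pass the threshold (unadjusted p = 0.0872, adjusted p = 1, edgeR).

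Between the sexes, 13 of 36 nuclear subunits of complex I passed the threshold as lower in males. So did 2 of 9 subunits of complex III, 1 of 11 of complex IV and 2 of 17 of ATP synthase. Of the mitochondrial ribosomal proteins, 8 of 77 passed as lower. By sign alone, in the same order, 35 of 36, 9 of 9, 10 of 11, 15 of 17 and 68 of 77 were lower. None of these lists had a gene that passed as higher in males, and over all genes 3.03% were called lower and 3.07% higher. Ndufs7, a subunit of complex I, had a log2 fold change of -0.40 (adjusted p = 0.0641, edgeR). Uqcrq of complex III had -0.45, Atp5e of ATP synthase -0.33 and Mrpl36 of the large ribosomal subunit -0.29 (adjusted p = 0.0621 for each, edgeR). In the list for transcription, replication and RNA maturation, 24 of 42 were lower by sign and 1 passed as lower. This was Hsd17b10, a subunit of mitochondrial RNase P, at -0.21 (adjusted p = 0.0949, edgeR). With the share of reads outside genes as a further covariate, 0 genes of these 6 lists passed, and the median of the complex I list went from -0.18 to -0.07. With single mice omitted, between 0 and 26 genes of the complex I list passed, and its median stayed between -0.22 and -0.15.

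Of the 17 nuclear copies, 9 were in the count tables. These copies were compared with the mitochondrial genes they match, since the reads of both are alike. Gm13341, the copy of mt-Co2 on chromosome 2, had a lowest level of 1.54 CPM, a median of 1.77 CPM and a highest level of 2.83 CPM in CD mice. In FD mice it had 4.77, 5.03 and 5.67 CPM in females 1 to 3 and 5.14 and 4.74 CPM in males 1 and 2. The groups did not overlap, which was the case with FD above CD for 0.403% of all genes, and Gm13341 was higher in FD by a log2 fold change of 1.38 with a standard error of 0.143 (adjusted p = 0.000339, edgeR). The uniquely aligned reads of mt-Co2 gave between 0.732 and 1.06 CPM in CD mice and between 0.668 and 1.29 CPM in FD mice. Their log2 fold change was -0.03, with a 95% interval from -0.46 to 0.40. All 635 start positions of mt-Co2 had a second match, so these values do not measure its level or whether it differed between the diets. Over all mice Gm13341 had 837 counts and mt-Co2 had 226, and for the same reason these totals do not compare the levels of copy and gene.

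The neighbours of Gm13341 behaved differently from it. Gm13340 (22588103 to 22589647), the copy of mt-Co1 beside it, had 5.28 ± 0.746 CPM in CD (SD, n = 6) and 6.86 ± 0.446 CPM in FD (SD, n = 5), a log2 fold change of 0.37 that did not pass (unadjusted p = 0.00274, adjusted p = 0.732, edgeR). Gm13339 (22590024 to 22590533), the copy of mt-Nd2, had a log2 fold change of 0.03. These differences between neighbours were not tested themselves. Gm11410, the copy of mt-Cytb on chromosome 4 (80003989 to 80005131, plus strand), had 0.372 ± 0.109 CPM in CD and 0.995 ± 0.224 CPM in FD, and was higher in FD by a log2 fold change of 1.36 (adjusted p = 0.0685, edgeR). It rests on 3 to 29 counts per mouse, and the adjusted p was 0.131 under the replicate block and between 0.1003 and 0.227 when any mouse other than CD female 1 was left out. Thus, 2 of 9 copies passed the threshold, and Gm13341 and Gm11410 were known to differ when the copies were chosen, so the count is a description. The reads of copies and mitochondrial genes can be split between them, so these levels are uncertain.

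**Figure D5:**
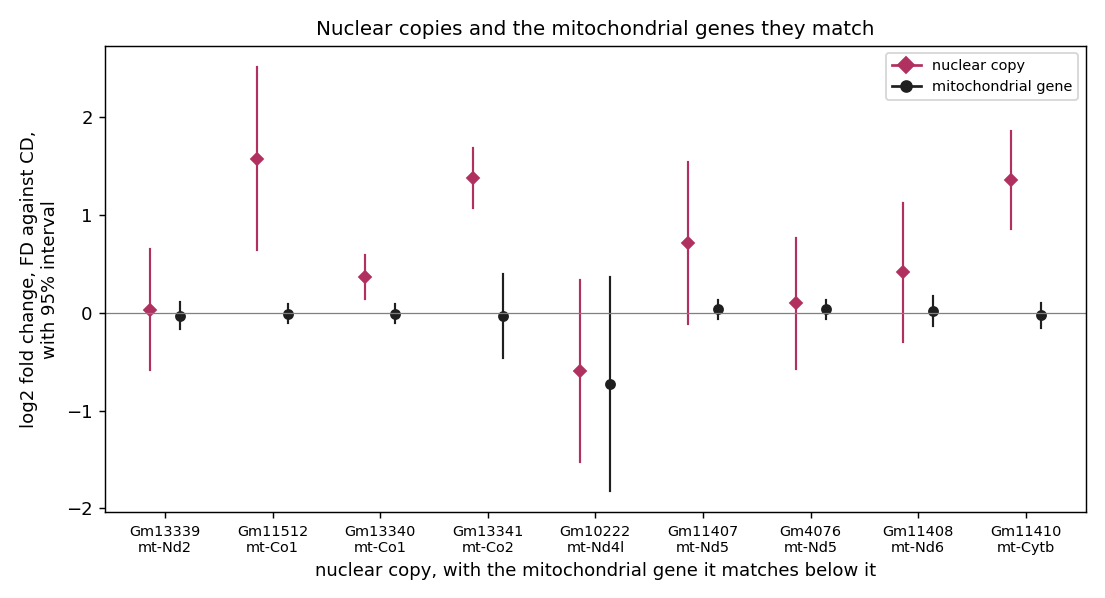
Log2 fold change FD against CD with its 95% interval (edgeR) for the 9 nuclear copies in the count tables (red) and for the mitochondrial gene that each matches (black). Gm13341 at 1.38 and Gm11410 at 1.36 passed the adjusted threshold, and the mitochondrial genes outside the copied run lie near 0. The values of mt-Co2 and mt-Nd4l do not measure these genes, since all 635 and 245 of 248 of their start positions had a second match.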

How the data were processed

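Count tables of 11 mice were analysed. Per the labels and the methods of the study, reads were trimmed and aligned to GRCm38 (mm10) with STAR, and the authors counted unique alignments per gene and deposited these raw counts without normalization. The methods name featureCounts, while the 5 summary lines of each table have the form that HTSeq writes. Annotation release, strandedness and selection of the RNA are not given in the sources used here. Reads outside genes, ambiguous reads and reads with several alignments are in the summary lines only. They were left out of library sizes and tests, and reads outside genes made up 8.34% to 12.9% of uniquely aligned reads.

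Identifiers were matched to GENCODE symbols (95.1% matched). The 20589 genes whose counts summed to 10 or more were tested in R 4.3.3 with edgeR 4.0.16 (TMM, quasi-likelihood test, Benjamini-Hochberg adjustment, threshold 0.1 as in the study). FD was compared with CD without covariates and males with females with diet as covariate. Values per mouse are TMM-normalized CPM. Standard errors are the log2 fold change divided by the root of F. On simulated counts for FD against CD over 20589 genes, 98% of 200 genes changed by 1 on the log2 scale were recovered. Among the calls, 13.7% were false. The 200 genes were drawn from genes above a floor of mean counts. Recovery of genes with few counts, such as mt-Nd3 and mt-Nd4l, and of smaller changes was therefore not measured. p-values measure the spread between these mice, some of which may be littermates.

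Nuclear copies were found with blastn 2.17.0 among annotated pseudogenes, and sequences are those of the GENCODE transcripts. Each 50-base window of a gene was searched on both strands of annotated transcripts. Same sex and replicate number paired 5 CD with 5 FD mice. All 5 pairs deviated together (r between 0.209 and 0.428 over 15998 genes), but same-sex mice with different numbers reached r between -0.0807 and 0.448, so that the number is not set apart from sex by this check, and the labels do not say what a number marks. Alternatives were DESeq2 1.42.0, RLE size factors, TMM from nuclear genes, other count filters, covariates, the replicate block and the omission of each mouse. For the sexes, the covariate of reads outside genes and the omissions were added after seeing the data, as were all alternatives for nuclear copies and lists. Named were all mitochondrial genes, of each list the genes past the threshold (of 5 at most) or the 2 with the smallest p, and the most counted copy of each gene. The text gives examples of them. The result of 1 glial marker is not reported here. The genes and lists were chosen with earlier results of these data known. Python 3.11.15 with pandas 2.3.3 and matplotlib 3.10.9 served for tables and figures. Depth limits the precision of low genes, since 3 counts correspond to 0.0675 to 0.256 CPM before TMM scaling.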

Additional observations from a re-analysis of the deposited data

Results flagged for a closer look

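In CD mice, mt-Co3 had 1.54 CPM in female 1, above the other 5 mice by more than their own spread. Likewise, mt-Nd4l was highest in female 3, at 0.333 CPM. For mt-Nd4l this value rests on 5 counts, as many as in CD males 1 and 3, which had larger libraries. Both genes lie in the run copied on chromosome 1. For a single distant mouse, 68 groups of values were looked at and 2 were found, while chance gives about 1 in 20 groups.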

How the results depend on the processing

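Over all alternatives for FD against CD, including the omission of each mouse, 0 of the mitochondrial genes tested passed the threshold. Of all genes, 1 passed with at least 10 counts required in every mouse, 23 under the replicate block, 22 with the share of reads outside genes as covariate, and 3 to 12 without 1 mouse. The block changed no call of a mitochondrial gene. The difference in mitochondrial share was -0.0167 percentage points, and its sign turned between females (-0.234) and males (0.205) and with single mice omitted (-0.0906 to 0.0598). Of the fold changes of the 29 genes under settings other than omissions, 9 changed sign and 215 did not, and with omissions 34 did and 285 did not, none of them past the threshold. mt-Co1 turned to 3.6e-05 under the stricter count filter and to 0.0043 with reads outside genes as covariate, where mt-Cytb turned to 0.00077. Gm13339 turned to -0.10 under the replicate block and -0.080 with sex as covariate. Without 1 mouse, the log2 fold changes lay between -0.0234 and 0.0226 for mt-Co1, -0.0561 and 0.0153 for mt-Cytb, -0.0539 and 0.0182 for mt-Rnr1, -0.0683 and 0.00607 for mt-Rnr2, -0.15 and 0.10 for mt-Co2 and -0.0822 and 0.188 for Gm13339. For male against female, DESeq2 called 2043 genes and 4 of the mitochondrial genes, the covariate of reads outside genes left 9 and 0, and omissions gave 18 to 3244 and 0 to 6. The cause was not tested. TMM from nuclear genes gave 1215 genes and 1.

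Counts limit the genes of the copied run and the tRNA genes. mt-Nd3 and mt-Nd4l had 36 and 33 counts over all mice, and their 95% intervals for FD against CD reached -1.30 and -1.82 on the log2 scale, so that differences within them were not detectable at this depth. A second match of a read was sought among annotated transcripts in place of the genome, which was chosen after seeing the data, so that the number of start positions without a copy is an upper limit.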
